A study of Mus musculus with 4 samples.

Results

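The regions described here are 1048 weak peaks of histone H3 lysine 4 trimethylation (H3K4me3) where protein-coding genes begin, in mouse heart, out of 24996 peaks in the replicated list. They were chosen by the signal value that the authors gave each peak, read as a fold enrichment over a control: below 5, no farther than 1000 bp from where a protein-coding transcript begins, and with no peak of 5 or more at a start of the same gene. They mark 950 of 21670 protein-coding genes. Another 12707 genes had a peak of 5 or more at a start, and 8013 had none. Genes with only weak peaks were thus 4.38% of all genes and 6.96% of the 13657 genes with any promoter peak. Since the signal value chose them, their low folds are a description and not a finding.

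The tissue was heart of female B6CASTF1/J mice aged 2 months, which are F1 hybrids of C57BL/6J and CAST/EiJ. The 4 libraries came from pools named G and H, each of 2 heart biosamples with 2 technical replicates, and all mice were of 1 strain, sex and age with no treatment. The labels name 1 donor record for both pools, so nothing in them shows that the pools held separate animals. All values come from peak lists: the replicated list of both pools, a second list of both pools, and each pool's own list. No values per library and no read depth were given in the sources used here, and the alleles of the hybrid were not told apart.

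H3K4me3 is written by SET1 and MLL methyltransferases on the nucleosomes around transcription starts. It is typically high at CpG islands, whose unmethylated CpG dinucleotides recruit CXXC proteins that bring these enzymes, and at active promoters. In many tissues the promoters of silent developmental regulators keep a low level of H3K4me3 together with Polycomb's H3K27me3. In a tissue made of many cell types, a promoter active in a rare cell type also gives a low signal. A mark on few cells and a low mark on many cells cannot be told apart in these data.

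The weak peaks lay on promoters of very different base composition. The 6 sequences shown are the extremes of observed over expected CpG ratio among 30 candidates: genes of the fixed lists whose weak peak covered the most upstream start, served 1 gene and had no other transcript over the bases shown. Each is the 200 bases just before that start in the C57BL/6J reference (RefSeq, GRCm38, which is mm10), 5′ to 3′ on the gene's strand, with every CpG in capitals. The ratio given is that of the gene's start windows of 1000 bp either side. The 3 with the lowest ratios hold 3 to 10 CpGs.
Chrnb4, chr9:55048780-55048979, minus strand: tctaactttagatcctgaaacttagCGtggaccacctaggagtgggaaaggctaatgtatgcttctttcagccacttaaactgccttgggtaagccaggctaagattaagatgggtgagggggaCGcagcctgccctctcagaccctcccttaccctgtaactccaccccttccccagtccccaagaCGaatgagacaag
Fgf22, chr10:79754876-79755075, plus strand: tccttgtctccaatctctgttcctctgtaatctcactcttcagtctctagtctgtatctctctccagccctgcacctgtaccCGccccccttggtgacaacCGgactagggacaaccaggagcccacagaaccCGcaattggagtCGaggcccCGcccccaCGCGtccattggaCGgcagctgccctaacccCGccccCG
Ankrd1, chr19:36120100-36120299, minus strand: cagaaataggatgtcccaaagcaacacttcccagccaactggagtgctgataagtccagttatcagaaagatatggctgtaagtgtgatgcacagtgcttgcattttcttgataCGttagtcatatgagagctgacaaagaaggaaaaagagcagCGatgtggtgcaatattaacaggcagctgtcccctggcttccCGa
Chrnb4 encodes a nicotinic acetylcholine receptor subunit, Fgf22 a fibroblast growth factor and Ankrd1 a stress-responsive repeat protein of heart muscle. Their CpG ratios were 0.292, 0.308 and 0.353. The 3 with the highest ratios are homeobox, forkhead and POU factors of the embryo and hold 8 to 37 CpGs.
Gbx1, chr5:24527203-24527402, minus strand: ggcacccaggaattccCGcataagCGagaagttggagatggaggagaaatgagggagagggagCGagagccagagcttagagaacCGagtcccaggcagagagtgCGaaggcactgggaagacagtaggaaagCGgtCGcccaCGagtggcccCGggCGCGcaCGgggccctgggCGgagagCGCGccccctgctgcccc
Foxd1, chr13:98354042-98354241, plus strand: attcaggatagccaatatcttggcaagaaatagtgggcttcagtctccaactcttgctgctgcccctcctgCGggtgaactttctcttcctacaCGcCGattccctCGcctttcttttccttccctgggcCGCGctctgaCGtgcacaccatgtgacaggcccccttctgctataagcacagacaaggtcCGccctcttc
Pou4f1, chr14:104468000-104468199, minus strand: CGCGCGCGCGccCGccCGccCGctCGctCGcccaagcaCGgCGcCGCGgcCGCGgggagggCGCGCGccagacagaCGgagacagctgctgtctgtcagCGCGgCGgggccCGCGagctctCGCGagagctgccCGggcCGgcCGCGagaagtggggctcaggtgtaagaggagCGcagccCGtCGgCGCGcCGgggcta
Their CpG ratios were 0.843, 0.887 and 0.969. The sequence of Foxd1 shows that a high ratio over the whole window need not mean many CpGs just before the start: it holds 8, while Pou4f1 holds 37. The peaks at these 6 starts had folds of 2.73 (Chrnb4), 3.08 (Fgf22), 3.41 (Ankrd1), 4.90 (Gbx1), 4.83 (Foxd1) and 4.58 (Pou4f1).

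Over all genes, weakly marked promoters stood between the other classes in CpG content. The highest CpG ratio among a gene's start windows had a median of 0.474 in the 950 genes, 0.644 in genes with a stronger peak and 0.197 in genes with none. A promoter was called high-CpG where a start window reached a ratio of 0.6 together with 50% GC. That was so for 249 of the 950 genes, 26.2% (95% exact binomial interval 23.4 to 29.1%), against 53.5% (52.7 to 54.4%) with a stronger peak and 3.03% (2.67 to 3.43%) with none. These intervals, like all below, cover counting error only. Genes with only weak peaks were 3.41% of all high-CpG and 4.88% of all low-CpG genes, and 3.53% and 10.6% of those with any promoter peak. The share with only weak peaks fell from 36.0% of marked genes with a ratio below 0.2, through 23.1% (0.2 to 0.4), 7.95% (0.4 to 0.6) and 3.67% (0.6 to 0.8), to 2.26% (0.8 to 1.0). Weak peaks alone thus made up a larger share of the marked genes the lower their CpG ratio. Over all genes of the same bins the share was 1.46%, 6.83%, 6.85%, 3.52% and 2.22%, so this trend holds among marked genes only. Below 0.2, 96.0% of the 4250 genes had no peak and 62 were weakly marked.

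**Figure D1:**
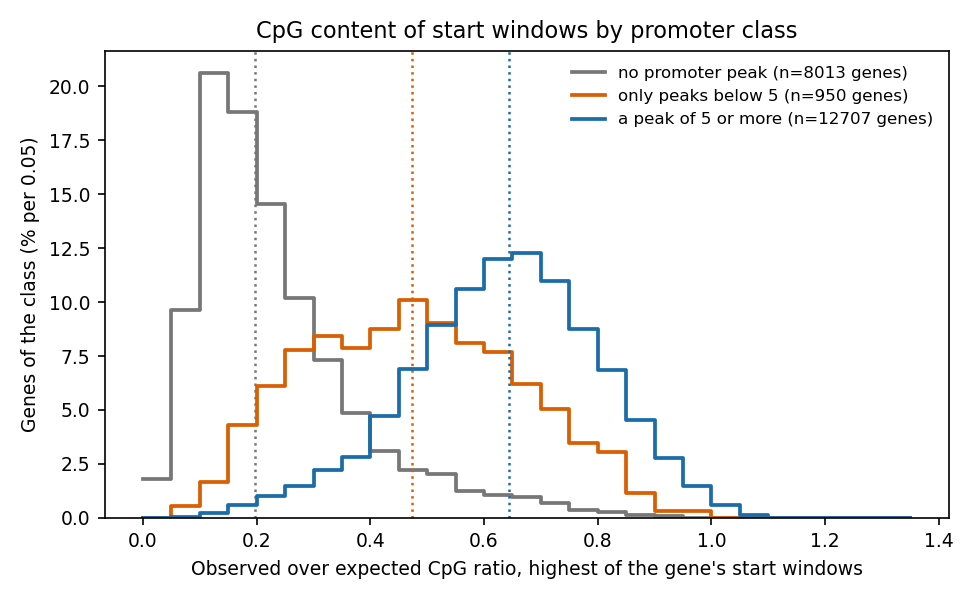
Share of each class's genes (y axis, % per bin of 0.05) by the highest observed over expected CpG ratio of the gene's start windows (x axis), with dotted lines at the medians. Genes with only weak peaks (median 0.474) spread between genes with no promoter peak (0.197) and genes with a peak of 5 or more (0.644).

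Fixed letters were counted in the 300 bases around each gene's most upstream principal start, 250 before it and 50 from it on, on both strands. GGGCGG, the core of the box bound by Sp1 and related factors, was in 49.4% of weakly marked, 65.2% of more strongly marked and 14.3% of unmarked genes, and in 45.7% of all. TATAAA, the TATA box, ran the other way: 11.2% of weakly marked, 6.85% of more strongly marked, 21.7% of unmarked and 12.5% of all genes. AGATAA, which erythroid and cardiac zinc finger factors of the Gata family bind, was in 8.74%, 6.0%, 15.9% and 9.78% of the same groups. CCAAT, bound by NF-Y, was in 33.7% of weakly marked and 38.4% of all genes, and CACGTG, the E-box, in 8.42% and 7.82%. A match is a description of letters, not a bound site. The groups also differ in CpG content, and GGGCGG itself holds a CpG. Among high-CpG genes GGGCGG was in 64.3% of weakly marked and 73.2% of all genes, and among low-CpG ones in 44.1% and 31.7%. TATAAA was in 9.64% and 5.69% of high-CpG and in 11.7% and 16.0% of low-CpG genes. AGATAA was in 3.21% and 4.18%, and in 10.7% and 12.6%. Whether the letters differ beyond CpG content was not tested.

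TTCAGCACC, the left part of the motif of REST, which represses neuronal genes outside neurons, was in 7 of the 950 windows (0.737%) and 78 of all 21670 (0.36%). The 7 genes were Syn1, Skor1, Sept3, Disp2, Tmem196, Gm3248 and Gm3558. The last pair carry the same letters in the 24 bases read, so that reads of such copies may be shared between them. The contexts of 4 matches are shown, with the motif in capitals, on the strand that holds it.
Syn1, chrX:20921129-20921152, minus strand: gaTTCAGCACCgcggtcagagcct
Skor1, chr9:63147197-63147220, minus strand: ggTTCAGCACCgcgaacagcagtg
Disp2, chr2:118779731-118779754, plus strand: gcTTCAGCACCagagcccggacag
Tmem196, chr12:119945893-119945916, minus strand: taTTCAGCACCacgttcctagcac
Syn1 encodes synapsin, a synaptic vesicle protein, and Skor1 a neuronal co-repressor. The match began 232 bases before the start in Syn1 and 11 bases after it in Disp2. Only the Tmem196 match, of all 7, lay within a peak of the replicated list.

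The weak peaks were narrower than stronger promoter peaks and covered a start less often, while both groups were chosen by overlap with the same start windows, which limits how far their summits can lie from a start. Their median width was 550.5 bp, against 1540 bp for the 13591 promoter peaks of 5 or more. Among the weak peaks, 629 (60.0%, 57 to 63%) covered a protein-coding start, against 86.6% (86.0 to 87.2%) of the stronger ones. A narrower peak spans fewer bases, so this share is not independent of width. Their summits lay a median of 187 bp from the nearest start, and those of stronger promoter peaks 190 bp. The summit was downstream of the start in 72.8% (70.0 to 75.5%) and 77.5% (76.8 to 78.2%). By annotation of protein-coding transcripts, 51.7% of weak summits lay in an exon, 31.4% in an intron and 16.9% outside such transcripts. By gene, a peak covered the start of a principal isoform in 533 of the 950 (56.1%, 52.9 to 59.3%) and in 90.9% (90.4 to 91.4%) of genes with a stronger peak.

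**Figure D2:**
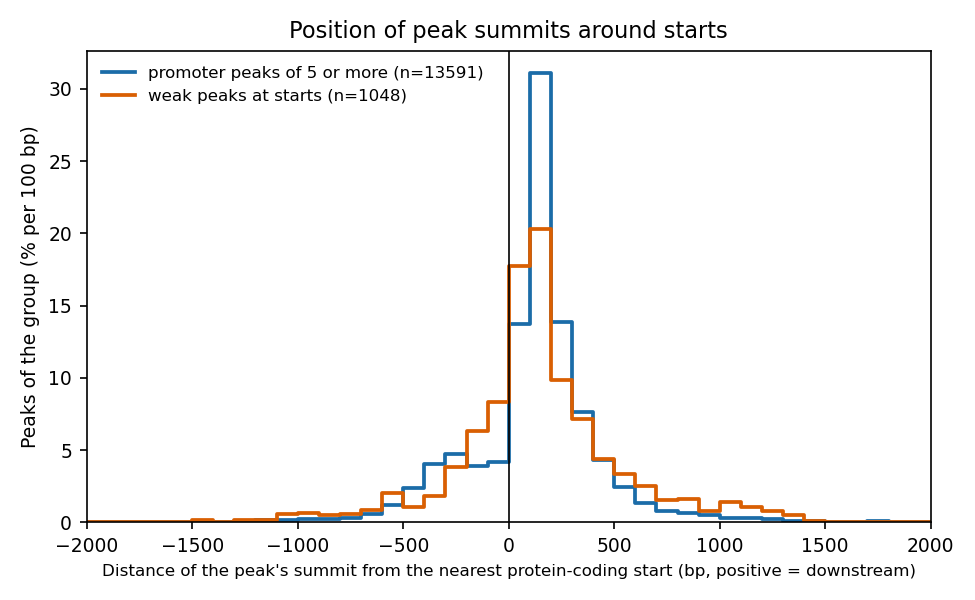
Position of peak summits (x axis, bp from the nearest protein-coding start, positive downstream) as the share of each group's peaks per 100 bp (y axis). Both groups pile up within 500 bp downstream of the start, with 59.4% of the 1048 weak peaks and 70.6% of the 13591 stronger promoter peaks there.

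The list held other weak peaks as well. Another 1116 weak peaks overlapped a start window of a gene that also had a stronger peak, and 6534 lay away from protein-coding starts. The share covering a start was 26.8% in the first of these groups, and its median distance from summit to start was 361 bp. CpG dinucleotides per 100 bp of peak had medians of 5.72 in the weak peaks alone at a start, 2.11 in those beside a stronger peak and 1.95 in those elsewhere. Stronger promoter peaks had 4.95, so the weak ones were narrow and held more CpGs per 100 bp. Their observed over expected CpG ratio was not higher, with a median of 0.632 against 0.658. Their median GC was 61.0%, against 55.6% for stronger promoter peaks. The nearest peak of 5 or more lay a median of 46810 bp away, compared with 17480 bp for stronger promoter peaks. For weak peaks of high-CpG genes that median was 72900 bp, and 65.4% (59.7 to 70.8%) of the 298 had no stronger peak within 50000 bp. That share was 41.6% (38.0 to 45.2%) for the 750 of low-CpG genes and 26.0% (25.2 to 26.7%) for stronger promoter peaks. The rule itself removes stronger peaks at the same gene, which lengthens these distances by construction. It likewise sets a difference from the 1116, of which 67.7% lay within 1000 bp of a stronger peak.

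Most genes had a single weak peak (836), 106 had a pair and 8 had 3: Anks1b, Dcn, Dlg4, Fitm1, Foxb2, Gfi1, Ifi47 and Lnx1. Of the peaks, 24 served 2 weakly marked genes each. At Dcn, which encodes the matrix proteoglycan decorin, pool G's list had 1 peak of 2457 bp where the highest of the 3 peaks in the replicated list was 896 bp wide. On X, 5.70% of genes and 12.8% of marked genes were weakly marked, more than on any autosome among marked genes (highest 9.30%, chromosome 14). Over all genes chromosome 18 had the highest share (6.07%) and chromosome 16 the lowest (3.33%).

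The pools differed in how many of these peaks their own lists held. Pool G's list had an overlapping peak for 87.3% (85.1 to 89.3%) of the 1048 and pool H's for 57.3% (54.2 to 60.3%). Both had one for 54.5%, and neither for 104 peaks (9.92%). For stronger promoter peaks the shares were 100% and 99.7%. The second list of both pools held an identical peak for 93.7% of the weak peaks, so it adds no independent support. Of the 1048, 32 (3.05%) had a q value over 0.05, as did none of the stronger promoter peaks.

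The share found in pool H rose with the fold, from 27.3% of the 44 peaks of 2 to 2.5 and 23.4% of the 137 of 2.5 to 3 to 86.2% of the 225 of 4.5 to 5. In pool G it rose from 56.8% to 99.6%. The share covering a start rose from 38.6% to 75.6% between the same bins, while the median width rose from 378.5 to 740 bp. The fold of the replicated list and the presence in a pool's list share their reads, so this is a description of the lists. The values also stand on steps: 895 of the 1048 peaks (85.4%) shared their fold with another weak peak, 34 of them the commonest one, and the 24 folds shared by 10 or more lay a median of 0.0963 apart. The same held for 83.1% of stronger promoter peaks. Differences between single genes of about 1 step were therefore not read as an order.

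**Figure D3:**
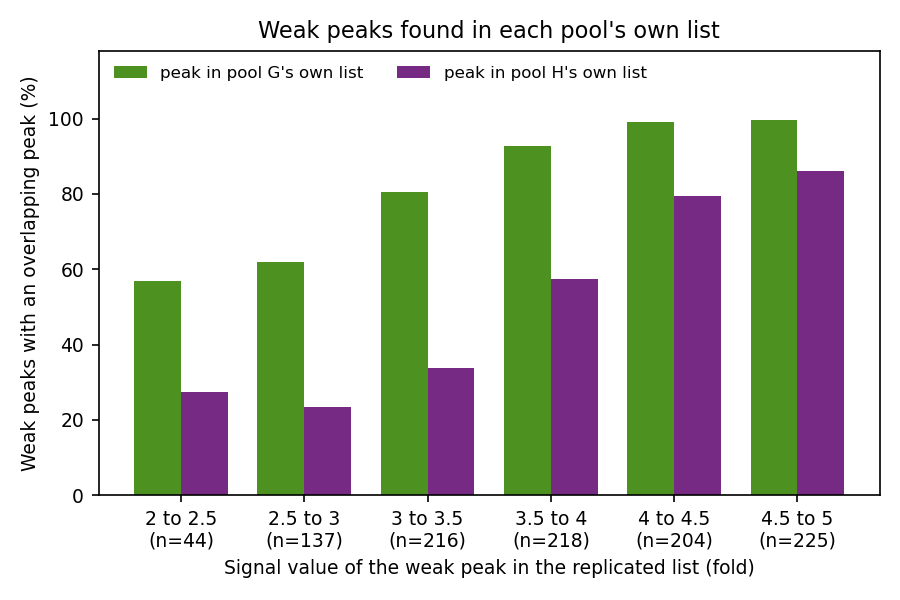
Share of the weak peaks (y axis, %) with an overlapping peak in pool G's or pool H's own list, by fold in the replicated list (x axis; the 4 peaks below 2 are not drawn). Pool G exceeds pool H in every bin drawn, with the widest gap at 3 to 3.5 (80.6% and 33.8%) and the narrowest at 4.5 to 5 (99.6% and 86.2%).

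By gene, pool G's list gave 373 of the 950 a peak of 5 or more, 478 only weaker ones and 99 none. Pool H's gave 55 a peak of 5 or more, 525 only weaker ones and 370 none (38.9%). Both pools' own lists gave a peak of 5 or more to 36 of the 950 genes (3.79%), and neither list gave a peak to 75 (7.89%). Whether a gene counted as weakly marked therefore depended on the list used. Of the 556 with a peak in both, 86.2% had the higher fold in pool G's list, as did 96.5% of genes with a stronger peak. How each list was scaled is not given, so such comparisons describe the lists and not levels of the mark. Among all peaks of a list, ranked from the lowest fold up, the highest promoter peak of these genes had a median rank of 27.8% in pool G's list (851 genes) and 14.8% in pool H's (580 genes).

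At the bound of 5, the genes just inside were Wnt4, Grid2ip, H2-Q6, Cdh20 and Dmrta2, all at 4.998, the highest fold below the bound, which 15 peaks shared. Just outside were Tnfsf13b (5.005), Ppfia2, Arhgdib and Col6a3 (5.02) and Ebf2 (5.059). H2-Q6 belongs to a family of near-identical histocompatibility genes, and its reads may be shared with its copies.

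The tissue label was checked against defining genes first. Of 36 cardiomyocyte genes 34 had a stronger peak, with folds of 10.3 at Myh6 and 8.95 at Actn2, and 0 were weakly marked. The other two, Myh7 and Myl7, had no peak. All 25 housekeeping genes had a stronger peak. Among 31 endothelial markers 27 had a stronger peak and 2 were weak, Lyve1 (3.07) and Vwf (2.69). Of 40 immune markers 2 were weak, Coro1a at 4.52 and Runx3 at 4.13, 3 were more strongly marked and 35 had no peak. The weak share of 5.0% (0.611 to 16.9%) is near the 4.38% of all genes. Of 24 hepatocyte genes 2 were weak (8.33%, 1.03 to 27.0%), Foxa1 at 4.71 and Trf at 2.64, 1 was more strongly marked and 21 had no peak. None of 12 adipocyte markers was weakly marked, but 5 had a stronger peak and 7 had no peak. None of 28 germline genes was weakly marked either, with 2 more strongly marked and 26 without a peak. The shares of 0 have upper limits of 9.74% (cardiomyocyte), 13.7% (housekeeping), 26.5% (adipocyte) and 12.3% (germline), so each interval includes 4.38%.

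Developmental transcription factors other than Hox had the highest share of weakly marked genes of the 21 lists: 40 of 120, 33.3% (25 to 42.5%), with 37 more strongly marked and 43 unmarked. The background over all genes is 4.38%. Their promoters were mostly CpG-rich, and 34 of the 93 high-CpG ones were weak, where the background among high-CpG genes is 3.41%. They made up 13.7% of the 249 weakly marked high-CpG genes. Their folds ran from 2.84 (Emx1) to 4.91 (Gata3), with a median of 4.28. Pool G's list held a promoter peak for 37 of the 40 and pool H's for 28 (70.0%), where the shares over the 950 genes are 89.6% and 61.1%.

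Gata3, a zinc finger factor of T cells, sympathetic neurons and the inner ear, had a peak of 2971 bp over its start (chr2:9876795-9879765) with a fold of 4.91 and a -log10 q of 23.8. Its own-list folds were 6.42 in pool G and 5.87 in pool H, where the peak was 3013 and 725 bp wide. Sim2, En1, Foxe1 and Gbx1 shared a fold of 4.90. En1 is the midbrain and hindbrain homeobox gene, Sim2 a basic helix-loop-helix factor of the midline and Foxe1 a thyroid forkhead factor. En1 had 5.68 in pool G and 5.01 in pool H, and Gbx1 6.25 and 4.63. Foxd1, a kidney stroma forkhead factor, had a peak of 1390 bp over its start, with 4.83 in the replicated list, 6.77 in pool G and 5.40 in pool H. Pou4f1, a sensory neuron factor, had 4.58, 6.63 and 4.18.

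The neural and pluripotency factors Sox2 (3.26), Otx2 (3.36), Pax3 (4.13) and Emx2 (3.75) were found in both pools' lists. Otx2 and Sox2 were low in both, with 3.79 and 3.60 in pool G and 2.89 and 3.09 in pool H. Olig1 (2.88), Neurod2 (4.23), Dlx2 (4.32) and Dlx6 (4.42) were found in pool G only. Alx1 (3.07) and Sox3 (3.36) were in neither pool's own list, although the replicated list held them. Within pool G's list 24 of the 37 were at 5 or more, and within pool H's 6 of the 28. Over all weakly marked genes these counts were 373 of 851 and 55 of 580.

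**Figure D4:**
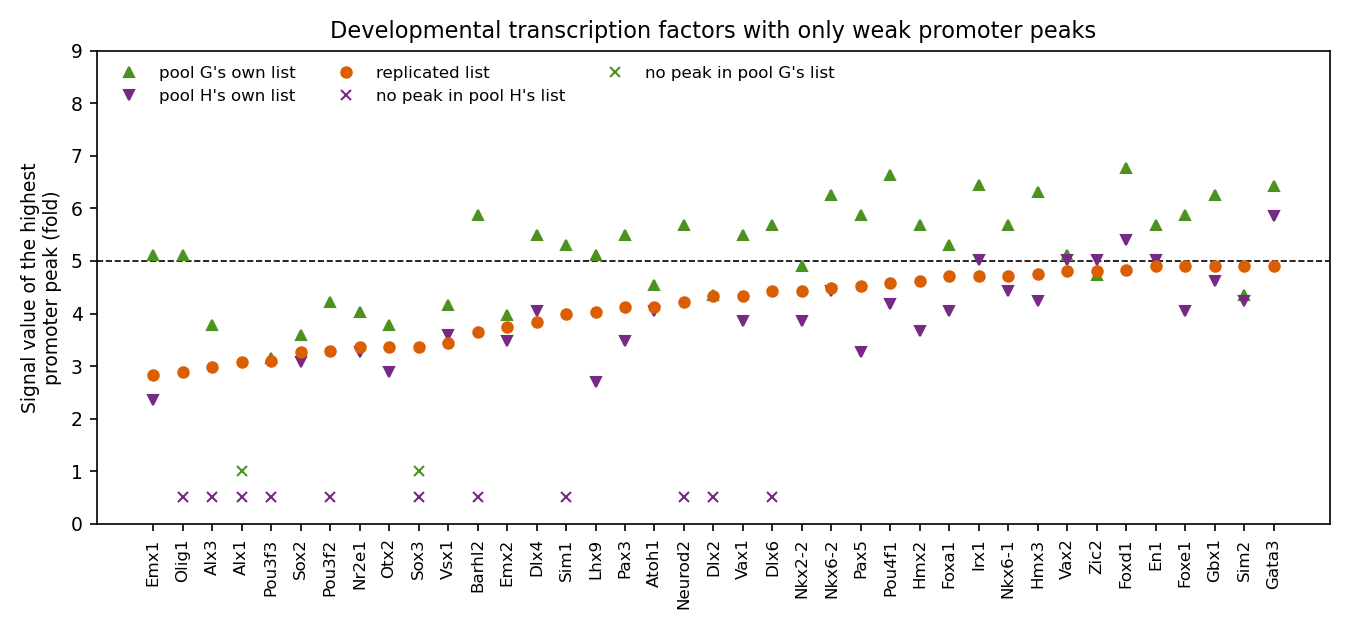
Fold of the highest promoter peak (y axis) for 39 weakly marked developmental transcription factors (x axis, ordered by the replicated list) in the replicated list and each pool's own list, with a dashed line at 5 and crosses, placed below 1.5, for no peak in a list. Pool G's list lacks 2 of the genes drawn and pool H's 11, and how each list was scaled is not given.

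Of the 39 Hox genes 7 (17.9%, 7.54 to 33.5%) were weak, 12 more strongly marked and 20 unmarked. Hox genes pattern the body axis in clusters. The 7 were Hoxb5 (4.32), Hoxb6 (4.90), Hoxb7 (2.81), Hoxc5 (3.17), Hoxd4 (2.24), Hoxd8 (4.52) and Hoxd13 (4.71). All were in pool G's list, and only Hoxb5, Hoxd8 and Hoxd13 in pool H's. These lists held 89.6% and 61.1% of the 950 genes. Overlapping transcripts in these clusters can share a peak, and the start windows of neighbours are close.

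In the list of secreted growth factors and morphogens 19 of 101 genes were weak (18.8%, 11.7 to 27.8%), with 51 more strongly marked. Some of its members, Fgf14 among them, belong to the Fgf family but are not secreted. Pool H's list held 16 of the 19, against 61.1% of the 950 genes. The highest were Wnt4 (4.998), Fgf14, Igf2 and Nrg2 (4.90 each). Igf2, the imprinted fetal growth factor, had a peak of 1623 bp over its start and folds of 5.87 in pool G and 4.82 in pool H. Fgf14 had a peak of 2705 bp, and its nearest stronger peak was 1690869 bp away. The hedgehog ligands Dhh (4.53) and Ihh (3.55) and the embryonic signals Nodal (3.32) and Fgf8 (4.32) were in both pools' lists. Ereg (2.53), an EGF receptor ligand, was in neither. Gdf6, a bone morphogenetic protein of joints, had 3.05 in the replicated list, 8.52 in pool G and 2.51 in pool H.

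Genes of neurons and synapses were weak in 16 of 78 cases (20.5%, 12.2 to 31.2%). Pool G's list held all 16 of them and pool H's 7 (43.8%), where the shares over the 950 genes are 89.6% and 61.1%. Nefm, a neurofilament, was highest at 4.998, with 5.61 in pool G and 4.05 in pool H. Elavl3 (4.58), a neuronal RNA-binding protein, and Syn1 (4.52) had 6.31 and 5.49 in pool G and no peak in pool H. Ncam2, an adhesion molecule, had 4.49, 5.66 and 3.41, and its nearest stronger peak was 2622755 bp away. Tubb3 (2.99) and Camk2a (3.30) were in pool G only.

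Of 83 neurotransmitter receptor genes 15 (18.1%, 10.5 to 28.0%) were weak. Pool G's list held them all and pool H's 8, against 89.6% and 61.1% of the 950 genes. Htr6 (4.90), a serotonin receptor, had 6.25 in pool G and 3.86 in pool H. Gabrb2 (4.82), Grm4 and Chrna4 (4.81 each) encode GABA, glutamate and nicotinic receptor subunits and were in both. Chrnb4, whose CpG-poor sequence is shown above, had 3.504 in pool G and no peak in pool H. Its neighbour in the same nicotinic gene cluster, Chrna5, had 4.13, 5.87 and 4.43.

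Of 113 voltage-gated and other ion channel genes 16 (14.2%, 8.32 to 22.0%) were weak and 58 more strongly marked. The potassium channel genes Kcna2 and Kcnb2 (4.90 each), Kcng1 (4.81) and the calcium channel subunit Cacng7 (4.49) were highest. Kcnq3 and Scn8a (2.88 each), which are best known from neurons, were in neither pool's own list.

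Fibroblast markers were weak in 8 of 25 cases (32.0%, 14.9 to 53.5%), with 15 more strongly marked and 2 unmarked. All 8 had low-CpG promoters, but only 4 of the 25 listed markers had a high-CpG one. Of the 40 weak developmental factors 34 had high-CpG promoters, as did 93 of the 120 listed. Pool G's list held all 8 weak fibroblast markers and pool H's 6, against 89.6% and 61.1% of the 950 genes. Thy1 (4.81), Col3a1 (4.35), Dcn (3.94) and Mfap5 (3.84) were highest, and Pi16, Comp, Dpep1 and Lum followed, down to 2.91. Col3a1 encodes a fibrillar collagen. Its peak of 1373 bp had its summit 886 bp downstream of the start in an intron, did not cover the start, and lay 562 bp from a stronger peak outside its start windows. Lum, the proteoglycan lumican, had its summit 1365 bp downstream and a peak of 1327 bp. In 7 of the 8 the peak at hand did not cover a start of the gene, the exception being Pi16. Col1a1 (5.41), Col1a2 (6.93) and Pdgfra (8.49) lay above the bound.

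Mural cell markers were weak in 3 of 16 cases: Myh11 (3.75), Acta2 (3.61) and Higd1b (2.78), the first pair being smooth muscle contractile genes with peaks of 1154 and 1301 bp. Epithelial genes were weak in 8 of 30 (26.7%, 12.3 to 45.9%). Grhl3 (4.84), Esrp1 (4.83) and Cdh1 (4.71), the gene of E-cadherin, were in pool G's list only, and Cldn7 (4.58) and Ovol1 (4.45) in both. Of 27 fetal, atrial and stress genes of the heart 4 were weak: Nppb (4.93), Timp1 (4.23), Dkk3 (4.04) and Ankrd1 (3.41). Nppb encodes the B-type natriuretic peptide of stretched heart muscle. Its folds were 5.43 in pool G and 4.53 in pool H, and its neighbour Nppa had no peak in the replicated list. Of 13 blood and platelet markers Pf4 (4.52) was weak, of 12 epicardial markers Bnc1 (3.87), of 12 glial markers Kcna1 (4.13) and Ngfr (3.32), and of 27 skeletal muscle genes Mybpc2 (3.22) and Casq1 (3.02). These shares were 7.69% (blood), 8.33% (epicardial), 16.7% (glial) and 7.41% (skeletal muscle), against 4.38% of all genes. For lists of this size the intervals are wide, from 0.195% to 36.0% for the blood list, and each of these includes 4.38%. So do those of the mural list (18.8%, 4.05 to 45.6%) and the fetal, atrial and stress list (14.8%, 4.19 to 33.7%).

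**Figure D5:**
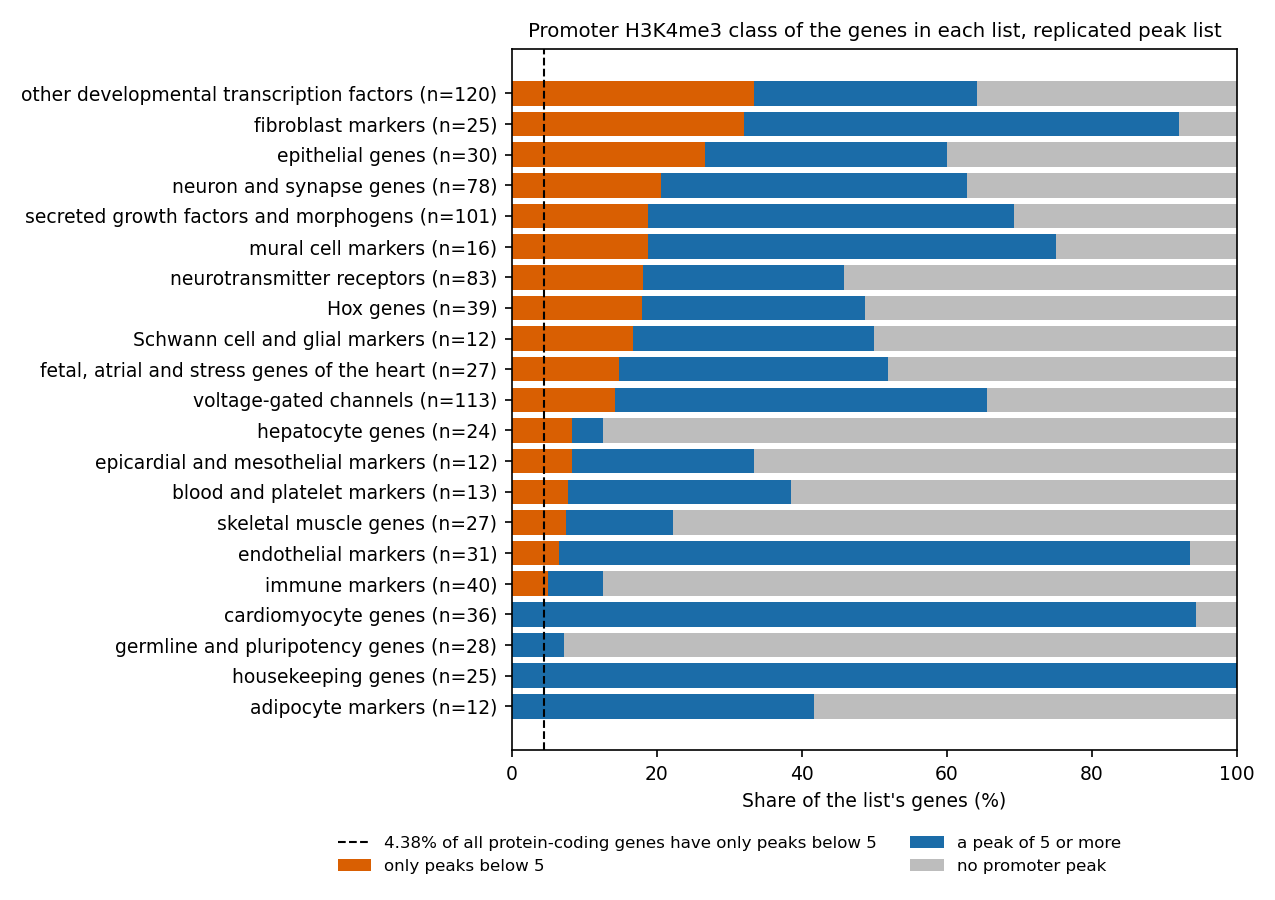
Share of each list's genes (x axis, %) with only weak promoter peaks, with a peak of 5 or more, or with none, for the 21 lists (y axis, n genes each). Developmental transcription factors (33.3%) and fibroblast markers (32.0%) lie farthest above the dashed line at 4.38%, the share of all protein-coding genes. The cardiomyocyte, housekeeping, adipocyte and germline lists have no weakly marked member, with intervals that include 4.38%.

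Some weak peaks were wide or had high q scores despite their low fold. The widest were at Gpr22 (3433 bp, fold 4.82), Gata3, Ankrd1, Mmp23 (2711 bp), Fgf14, Klhl41 (2698 bp), Thsd1 (2680 bp) and Asb11 (2661 bp). Gpr22 encodes an orphan receptor, and Klhl41 and Asb11 are known from striated muscle. Ankrd1, whose sequence is shown above, had a peak of 2733 bp over its start (chr19:36117535-36120267), with folds of 3.41 in the replicated list, 7.01 in pool G and 3.74 in pool H. The highest -log10 q values were at Eif4enif1 (34.3), Rsph1 (31.1), Gata3 (23.8), Mgst1 (20.3), Thsd1 (19.6), Rnf207 (17.5), Klhl33 (16.5) and Gm13275 (16.0), where the median of the weak peaks was 5.69. Most of these were wide, but Eif4enif1 (500 bp, fold 4.002) and Gm13275 (319 bp, fold 3.08) were not. Mgst1 had 4.89 in the replicated list, 9.93 in pool G and 4.58 in pool H.

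The lowest folds were at Gm20489 and Il2rg (1.87, 1 shared peak), Arl14epl (1.88), Grin3b (1.99), Mamstr (2.03), Mfap4 (2.03), Chad and Gstp2 (2.05 each). The peak at Il2rg, the common cytokine receptor chain, was absent from pool G's list and had 4.33 in pool H's. That at Mamstr, a coactivator of muscle genes, had 6.25 in pool G and none in pool H. Mfap4 was in neither pool's own list.

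By symbol, the families with the most weakly marked genes were Slc with 24 of 371 (6.47%), Tmem with 13 of 242 (5.37%), Fam with 12 of 204 (5.88%) and Ccdc with 9 of 139 (6.47%), where the background is 4.38%. Next came Col with 8 of 45 (17.8%), Lrrc with 7 of 66 (10.6%) and Rab with 6 of 69 (8.7%). Ifi (of 18, 27.8%), Cdh (of 23, 21.7%) and Zfp (of 394, 1.27%) had 5 each, and the Zfp share is below the background. These families were picked for their number of weak members, which favours large families and high shares, so the shares are a description only. Of the 1134 olfactory receptor genes (Olfr), the largest family, 4 were weak and 1130 unmarked. The collagens were Col3a1, Col8a2, Col24a1, Col19a1, Col26a1, Col11a1, Col9a2 and Col2a1, of which the cartilage collagen Col2a1 was lowest at 2.11. The cadherins were Cdh20, Cdh6, Cdh1, Cdh3 and Cdh8, and the interferon-inducible Ifi genes ran from 2.59 to 3.60. Of the 340 families of 8 or more genes, 193 had no weakly marked gene.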

How the data were processed

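H3K4me3 chromatin immunoprecipitation and sequencing was done on 4 libraries of heart, 2 technical replicates in each of pools G and H. Per the labels, fragments were 200 to 600 bp long. The authors deposited 4 peak lists on mm10. The authors' signal value of a peak was taken to be a ratio, its fold enrichment over control. The files name no column, and values are all over 1, so this reading was assumed. The second value used was the deposited -log10 q, and the third the deposited offset of the summit. Both technical replicates of a pool share an alignment, so no spread between libraries could be given. For the peak caller, its settings and the read depth, the entry is: not given in the sources used here. A possible control is listed in the labels, with no word on its use.

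Protein-coding transcript starts were taken from GENCODE M21 on the same build, outside chromosome Y. A peak belonged to a gene where it overlapped 1000 bp either side of a start by at least 1 bp, and a gene's fold was that of its highest such peak. CpG ratio, GC and repeats came from the RefSeq FASTA of GRCm38. The letters were to be counted in RefSeq's 300-base promoters, but that table matched 670 of the 950 genes by symbol, so windows of the genome around the most upstream principal start were used for all 21670 genes. The deposited values are the authors' own per list, so no test across replicates was possible: shares carry exact 95% binomial (Clopper-Pearson) intervals, which cover counting error over peaks or genes only, and no p-values were computed.

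The regions and the gene lists were chosen with earlier results of these data known. The genes named were, per list, up to 4 weakly marked members by fold; over all, the 8 highest in -log10 q, the 8 widest, the 8 lowest in fold, the 5 on either side of the bound, those with 3 weak peaks and the 10 symbol families of 8 or more genes with most weak members. A few further genes were named after seeing their values, and some listed genes are not reported here. Overlaps and classes were tested on simulated data of 2000 genes, where they were equal to those of bedtools. Alternatives were bounds of 4 and 6, windows of 500 and 2000 bp, basic transcripts, leaving out peaks shared with a gene that has a stronger peak, a -log10 q of at least 2, the other 3 lists, CpG bounds of 0.5 and 0.7 and an overlap of 50%. The tools were bedtools 2.31.1 and Python 3.11.15, with pandas 2.3.3 and numpy 2.4.6 for tables, scipy 1.17.1 for intervals and matplotlib 3.10.9 for plots.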

Additional observations from a re-analysis of the deposited data

How the results depend on the processing

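The number of genes with only weak promoter peaks, 950, stayed between 655 (pool G's own list) and 1337 (a bound of 6) under 9 of 10 alternatives, and was 522 with a bound of 4. The share with a high-CpG promoter, 26.2%, was 21.8% with a bound of 4, 21.1% in pool G's own list, 41.2% with a CpG bound of 0.5 and 12.7% with one of 0.7. The share of weak peaks covering a start, 60.0%, was 52.7% and 63.7% with bounds of 4 and 6, and 65.2% and 55.0% with windows of 500 and 2000 bp. The share with a peak in pool H's list, 57.3%, was 39.8% and 66.9% with bounds of 4 and 6, 51.9% in the second list of both pools, 39.3% in pool G's own list and 53.1% when 50% of the weak peak had to be overlapped. The cause of these shifts was not tested, beyond that a lower bound keeps lower peaks. Alternatives for 3 gene lists were added after seeing the data. Developmental transcription factors with only weak peaks, 40 of 120, numbered 16 with a bound of 4, 19 in pool G's own list and 34 to 56 under the other 8. Neuron and synapse genes, 16 of 78, ranged from 8 to 20, and fibroblast markers, 8 of 25, from 4 to 11. No paired analysis was possible because both technical replicates of a pool share its peak list and the pools carry no shared replicate number. Depth was not given, so whether a gene without a peak is unmarked or below detection cannot be told apart.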
